A study of Mus musculus with 6 samples.

Results

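The genes described here make, break down and sense prostaglandins. They were taken by gene symbol and comprise 9 names, the cyclooxygenases *Ptgs1* and *Ptgs2*, the prostaglandin synthases *Ptges*, *Ptgis* and *Ptgds*, the breakdown enzyme *Hpgd* and the receptors *Ptger2*, *Ptger3* and *Ptger4*. Of the 9 genes, 8 were measured among the 15280 genes of the series, and *Ptgds* was not analysed here. RNA-Seq libraries had been made from 3 mammary tumors (T) and from 3 normal mammary glands (M) lying next to them, 1 of each from the same 3 female ATF3 transgenic mice of the BK5.ATF3 strain. In this model the bovine cytokeratin-5 promoter drives *ATF3* in basal epithelial cells. The females had raised 1 litter, and a tumor length of 1.5 cm set the time of sampling. Age at the appearance of tumors was 6 to 12 months. Glands and tumors shared the transgene, the labels name no drug treatment, and the comparison is therefore between tissues and not between genotypes. Libraries are named by tissue and mouse (M11035 and T11035, M11640 and T11640, M9232 and T9232), and values are given in this order of mice.

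Prostaglandins are short-lived lipid signals made from arachidonic acid that phospholipases free from membrane lipids. Cyclooxygenases turn the acid into a common precursor, terminal synthases convert the precursor into individual prostaglandins, and these act on G protein-coupled receptors of nearby cells before a dehydrogenase inactivates them. *Ptgs2* is the cyclooxygenase that inflammatory and growth signals induce, and its forced expression in the mammary gland of transgenic mice is known to lead to tumors.

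Expression is given in CPM, the fragments on a gene scaled to the effective size of the library. Between 4750989 and 7806908 fragments fell on genes in a library, and 3 fragments, taken as the floor of detection, corresponded to between 0.393 and 0.610 CPM. Floors and the intervals of fragment shares and fragment ratios cover counting error only. Intervals of log2 fold changes come from limma and rest on the spread between libraries. Tumors were compared with glands by limma on log2(CPM + 0.5), two-sided and adjusted over all 15280 genes. Log2 fold changes are differences of mean log2(CPM + 0.5) and not ratios of mean CPM. A gene was called where its adjusted p did not exceed 0.05 and its log2 fold change was 1 or more in size (2-fold). Fold changes on this scale understate the change of genes with low values. Of the 8 genes, *Ptgs1*, *Ptgs2* and *Ptges* were called up, where 14.5% of all genes were. *Ptger3* was called down, where 13.7% of all genes were, so that 1 of 8 is close to the share in the table. All 3 tumors lay above all 3 glands for 3 of the 8 genes and below them for 2, beside 27.6% and 26.3% of all genes. The median log2 fold change of the 8 genes was -0.02, against -0.0028 over all genes. In tissue samples such as these, fewer cells of a type and less RNA per cell cannot be told apart.

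**Figure D1:**
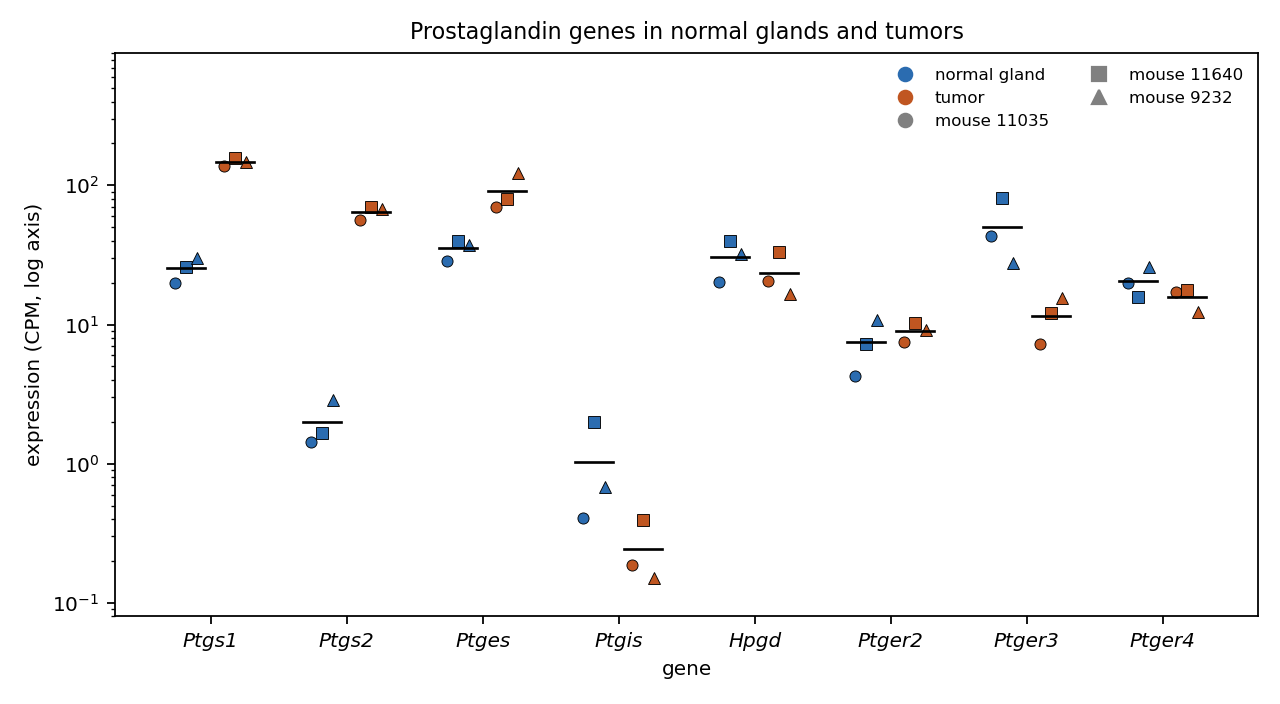
Expression of the 8 measured prostaglandin genes in CPM on a log axis, with 1 symbol per library, the symbol's shape giving the mouse and the bar the mean of 3 libraries. The tumors lie above the glands for *Ptgs1*, *Ptgs2* and *Ptges*, below them for *Ptgis* and *Ptger3*, and among them for *Hpgd*, *Ptger2* and *Ptger4*.

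*Ptgs2*, the inducible cyclooxygenase (mm9, chromosome 1, 151947254 to 151955140), had 1.42, 1.65 and 2.87 CPM in the 3 glands and 56.4, 69.3 and 67.9 CPM in the 3 tumors. All glands were low and all tumors high, with no overlap, and the glands' values rested on 7, 10 and 21 fragments against 303, 529 and 453 in the tumors. The mean rose from 1.98 ± 0.779 to 64.5 ± 7.09 CPM (SD, n = 3), a log2 fold change of 4.75 (standard error 0.25, 95% interval 4.17 to 5.33, adjusted p = 4.90e-06, limma), or 26.9-fold. Within single mice the log2 ratio of tumor to gland was 4.89, 5.02 and 4.34.

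*Ptgs1*, the cyclooxygenase that many cell types express constantly (chromosome 2, 36085946 to 36107792), had 19.7, 25.9 and 30.2 CPM in the glands and 138, 157 and 148 CPM in the tumors. The tumors again stood clear of the glands in every mouse. The mean rose from 25.3 ± 5.28 to 148 ± 9.57 CPM (SD, n = 3). The log2 fold change was 2.54 (standard error 0.18, 95% interval 2.12 to 2.96, adjusted p = 1.96e-05, limma). *Ptgs2* made up 6.73%, 5.99% and 8.68% of the fragments on both cyclooxygenases in the glands, with exact (Clopper-Pearson) 95% intervals of 2.75% to 13.4%, 2.91% to 10.7% and 5.45% to 13.0%. In the tumors its share was 29.0%, 30.6% and 31.4%, with intervals of 26.3% to 31.9%, 28.5% to 32.9% and 29.0% to 33.9%. The *Ptgs2* share was thus higher in each tumor than in each gland, and the 3 tumors differed from one another by less than their counting intervals. An exact permutation test of the shares, two-sided, gave p = 0.1, the smallest value that 3 against 3 libraries can reach. In this and the later permutation tests libraries were exchanged freely, without keeping tumor and gland of a mouse as a pair.

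*Ptges*, the inducible membrane-bound synthase of prostaglandin E2 (chromosome 2, 30744991 to 30785383), had 28.5, 39.8 and 37.5 CPM in the glands and 70.0, 79.6 and 122 CPM in the tumors. Its tumors lay above its glands without overlap, and tumor T9232 was the highest. The mean rose from 35.3 ± 5.99 to 90.6 ± 27.9 CPM (SD, n = 3). The log2 fold change was 1.32 (standard error 0.24, 95% interval 0.79 to 1.86, adjusted p = 0.00245, limma).

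*Ptgis*, the prostacyclin synthase (chromosome 2, 167017305 to 167066104), was near the floor, with 0.407, 1.98 and 0.684 CPM in the glands and 0.186, 0.393 and 0.150 CPM in the tumors. These values came from 2, 12 and 5 fragments in the glands and from 1, 3 and 1 in the tumors, so that all 3 tumors and 1 gland were at or under the floor. The tumors were the lower in every mouse, but the difference did not pass the test (log2 fold change -0.91, adjusted p = 0.153, limma), and its size ran from -0.49 without gland M11640 to -2.06 with DESeq2, uncalled throughout. Pooled over libraries, 19 fragments in the glands and 5 in the tumors gave a tumor-to-gland ratio of 0.245 with an exact counting interval of 0.0714 to 0.677, which leaves out the spread between mice.

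*Hpgd*, which inactivates prostaglandins by oxidation (chromosome 8, 58773349 to 58799843), had 20.3, 40.0 and 31.9 CPM in the glands and 20.7, 33.0 and 16.5 CPM in the tumors. Glands and tumors overlapped, and M11035 and T11035 had nearly the same value. The log2 fold change was -0.39 with a 95% interval of -1.11 to 0.32 (adjusted p = 0.349, limma), so neither a fall to about the fold threshold nor a small rise is outside the interval. Without single libraries the value ran from -0.67 (T11640) to -0.18 (T9232), and *Hpgd* was called in none of these fits. Set against *Hpgd* within the same library, fragments on both cyclooxygenases numbered 1.04, 0.690 and 1.04 per *Hpgd* fragment in the glands and 9.41, 6.85 and 13.1 in the tumors. This ratio does not depend on library scaling, and every tumor exceeded every gland (exact permutation p = 0.1, two-sided, again the smallest possible). *Ptges* fragments per *Hpgd* fragment were 1.40, 0.996 and 1.18 in the glands and 3.39, 2.41 and 7.43 in the tumors. They too did not overlap, and tumor T9232, with the highest *Ptges* and the lowest *Hpgd* of the tumors, had the highest ratio.

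All markers of basal and squamous epithelium, but only some of neutrophils and fibroblasts, moved in the same direction as the 3 genes called up. The markers of adipocytes and lymphocytes, given below, moved the other way. The gene named with a list of markers is the one with the highest mean over all 6 libraries, and another can be higher in a single library or tissue. The 6 neutrophil markers measured summed to 171, 69.5 and 112 CPM in the glands and 817, 1032 and 1399.9 CPM in the tumors, with *S100a9* at the highest mean, 4 called up and 2 called down. The 2 called down, *Mpo* and *Ngp*, mark immature neutrophils, and *Mpo* did not exceed the floor in any tumor. All 5 basal epithelial markers were called up, with sums of 215, 295 and 322 CPM in the glands and 2369.6, 2761 and 2767 CPM in the tumors. *Krt5* had the highest mean, but in the glands *Itga6* was the highest. All 5 squamous markers were called up, with sums of 5.49, 7.76 and 6.98 CPM against 1482, 2507 and 2143 CPM, with *Krt10* at the highest mean, and *Lor* was at 0 in every gland. Of 7 fibroblast markers 3 were called up and 1 down, with sums of 1009.9, 4368 and 1926 CPM in the glands and 8455, 9088 and 8773 CPM in the tumors, with *Col3a1* at the highest mean. The 3 called up were the collagen genes *Col1a1*, *Col1a2* and *Col3a1*. *Dpt* was called down, and *Pdgfra*, *Dcn* and *Lum* overlapped between the tissues and were not called. The part of these cell types in the rise of *Ptgs1*, *Ptgs2* and *Ptges* was not tested. Platelets are rich in *Ptgs1*, and their 4 markers measured summed to 24.0, 28.7 and 20.4 CPM in the glands and 11.9, 26.7 and 28.8 CPM in the tumors, with *Pf4* at the highest mean and no marker at 0 in a library. By limma, edgeR or DESeq2, 0 of the 4 were called, and 1 (*Itga2b*) had an unadjusted p under 0.05 in limma. Macrophages, another source of *Ptgs2*, had 1 of 7 markers called up (*Itgam*) and 1 down (*Cd163*), with overlapping sums of 300.3, 841 and 984 CPM in the glands and 618, 852 and 926 CPM in the tumors, with *Mrc1* at the highest mean.

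*Ptger3*, an inhibitory receptor for prostaglandin E2 that fat cells express strongly (chromosome 3, 157229856 to 157307722), had 43.3, 80.6 and 27.5 CPM in the glands and 7.26, 12.1 and 15.4 CPM in the tumors. The tumors were low and did not overlap with the glands, which differed widely among themselves. The mean fell from 50.5 ± 27.3 to 11.6 ± 4.11 CPM (SD, n = 3). The log2 fold change was -2.00 (standard error 0.40, 95% interval -2.91 to -1.09, adjusted p = 0.00437, limma). The log2 ratio within a mouse was -2.50 for T11035 and -2.69 for T11640 but -0.81 for T9232, since M9232 was the lowest gland and T9232 the highest tumor. The 7 adipocyte markers were all called down, with sums of 4846, 6306 and 3223 CPM in the glands and 156, 197 and 135 CPM in the tumors. *Fabp4* was their most abundant gene, and *Lep* did not exceed the floor in any tumor. Gland M9232 had both the lowest sum and the lowest *Ptger3* of the glands. Tumor T9232 had the lowest sum of the tumors but their highest *Ptger3*. The part of the adipocytes in the fall of *Ptger3* was not tested.

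*Ptger2*, a stimulatory receptor for the same ligand (chromosome 14, 45607870 to 45623495), had 4.27, 7.27 and 10.8 CPM in the glands and 7.44, 10.2 and 9.14 CPM in the tumors. The groups overlapped, the tumor being the higher in 2 of 3 mice. *Ptger4*, the other stimulatory receptor (chromosome 15, 5156661 to 5194187), had 19.9, 15.9 and 26.0 CPM in the glands and 17.1, 17.8 and 12.3 CPM in the tumors. It overlapped as well, with the lowest and the highest value in the same mouse (T9232 and M9232), and some of its exon sequence is shared with *Ttc33*, which leaves those fragments ambiguous. *Ptger2* had a log2 fold change of 0.32, with a 95% interval of -0.42 to 1.07, and *Ptger4* one of -0.37, with an interval of -0.92 to 0.18 (adjusted p = 0.457 and 0.257, limma). The value of *Ptger2* was -0.0011 without gland M11035 and 0.62 without gland M9232, and that of *Ptger4* was -0.19 without gland M9232 and -0.20 without tumor T9232. The remaining receptor for prostaglandin E2, *Ptger1*, was chosen for mention after its values were seen. It had 7.12, 6.44 and 6.70 CPM in the glands and 3.91, 3.15 and 4.50 CPM in the tumors. Its tumors lay below its glands, but at a log2 fold change of -0.75 it was under the fold threshold (adjusted p = 0.0334, limma).

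Taken per length of exon, *Ptger3* made up 63.0%, 75.8% and 42.4% of the 4 receptors for prostaglandin E2 in the glands and 22.8%, 30.3% and 39.3% in the tumors. The highest tumor share was close to the lowest gland share, from the same mouse (T9232 and M9232), yet the groups did not overlap. The *Ptger2* share was 7.68%, 8.45% and 20.6% in the glands and 29.0%, 31.8% and 28.8% in the tumors, also without overlap (exact permutation p = 0.1 for either share, two-sided, the smallest possible). The *Ptger4* share overlapped between the tissues, at 10.2% to 27.5% in the glands and 21.4% to 36.9% in the tumors. Shares of a whole are tied to each other, so a lower share of 1 receptor raises the others.

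Levels of different genes were compared per kilobase of exon. In the glands the order of mean levels was *Hpgd* at 17.9 CPM per kb, *Ptger3* at 11.1, *Ptges* at 8.96, *Ptgs1* at 6.51, *Ptger4* at 3.10, *Ptger2* at 2.02, *Ptgs2* at 0.479 and *Ptgis* at 0.399. Of the neighbours in this order, *Ptgs1* and *Ptger4* did not overlap over the 3 libraries, nor did *Ptger2* and *Ptgs2*, while each other pair of neighbours did. In the tumors the order was *Ptgs1* at 38.0 CPM per kb, *Ptges* at 23.0, *Ptgs2* at 15.6, *Hpgd* at 13.6, *Ptger3* at 2.54, *Ptger2* at 2.43, *Ptger4* at 2.37 and *Ptgis* at 0.0947. There the ranges of *Ptgs2* and *Hpgd* overlapped, as did those of the 3 receptors, and the other neighbours were apart. *Ptgs2* therefore moved from next to last in the glands to the third place in the tumors, and *Hpgd* from first to the fourth.

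**Figure D2:**
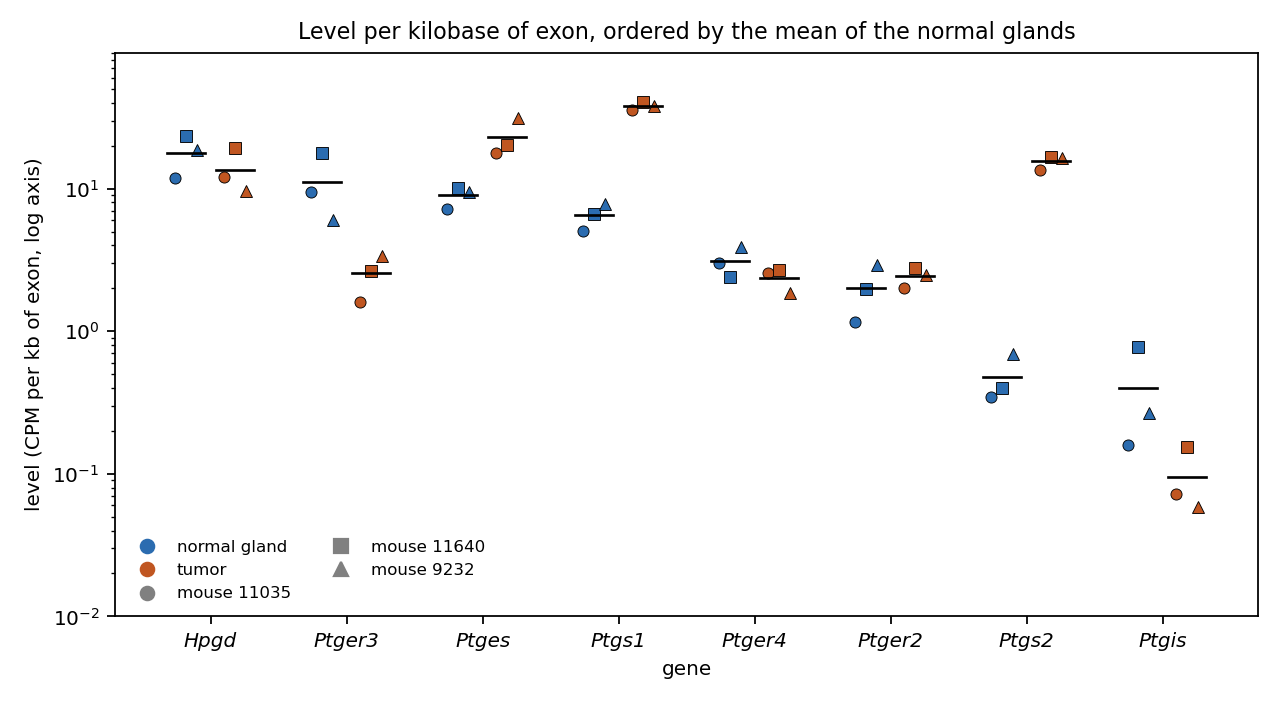
Level of each gene in CPM per kilobase of annotated exon on a log axis, with genes ordered by the mean of the glands, 1 symbol per library and a bar at the mean of 3 libraries. *Hpgd* has the highest mean in the glands (17.9) and *Ptgs1* the highest in the tumors (38.0), and the means of the 3 receptors lie between 2.37 and 2.54 in the tumors.

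The remaining genes of the pathway were taken from lists by role. With the lipoxygenase branch, 44 of 50 listed genes were measured, of which 15 were called up, 4 down and 25 not, where 14.5% and 13.7% of all genes were called up and down. Their median log2 fold change was 0.41 against -0.0028 over all genes. Of 12 measured genes that free fatty acids from lipids, 5 were called up and 2 down, with a median of 0.82, and edgeR and DESeq2 each called 4 down, adding *Pla2g6* and *Faah* (both lower in all tumors, and chosen for mention after their values were seen). The highest mean over the 6 libraries was that of *Pla2g4a*, the cytosolic phospholipase that supplies most arachidonic acid for prostaglandins, at 36.2, 105 and 70.7 CPM in the glands and 89.9, 113 and 95.6 CPM in the tumors. It led the list in the tumors, while *Mgll* led it in all glands. *Pla2g4a* overlapped between the tissues and was not called (log2 fold change 0.61, adjusted p = 0.178, limma), and its value was 0.20 without gland M11035 and 0.96 without gland M11640.

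The 5 genes called up were phospholipases of the same or a related family. Basal and squamous epithelial markers rose in the same libraries, and their part in the rise of these 5 genes was not tested. *Pla2g4e* had 4.07, 1.49 and 0.137 CPM in the glands and 53.4, 53.1 and 61.9 CPM in the tumors (log2 fold change 4.98, adjusted p = 2.81e-04, limma). *Pla2g4f* had 1.02, 0.661 and 0.821 CPM against 8.93, 9.96 and 7.79 CPM (log2 fold change 2.82, adjusted p = 7.79e-05, limma). Both were low in every gland and high in every tumor. *Pla2g4d* had 2 fragments in all glands together and 58 in all tumors, and *Pla2g2f* had 1 and 288. Their ratios of tumor to gland were 26.9 with a counting interval of 7.13 to 228, and 268 with one from 47.6 upward, and these intervals leave out the spread between mice. *Pla2g4b* was the weakest call, with a mean of 3.22 ± 0.788 CPM in the glands and 7.02 ± 1.45 CPM in the tumors (SD, n = 3) and a rise of 1.02 on the log2 scale (adjusted p = 0.0193, limma). It was under a threshold with pseudocount 1 (0.93) and without gland M11640 (0.83), tumor T11035 (0.90) or tumor T11640 (0.97), its adjusted p running from 0.0180 to 0.0767 over all alternatives.

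The 2 genes called down were *Mgll* and *Pla2g2d*. *Mgll*, a monoacylglycerol lipase that also serves fat breakdown in adipocytes, had 128, 191 and 99.3 CPM in the glands and 8.75, 10.4 and 15.1 CPM in the tumors (log2 fold change -3.54, adjusted p = 3.11e-05, limma). *Pla2g2d*, a secreted phospholipase of lymphoid tissue, had 31.5, 32.7 and 96.4 CPM in the glands and 2.23, 2.10 and 4.80 CPM in the tumors (log2 fold change -3.81, adjusted p = 2.96e-04, limma). Neither overlapped between the tissues. Lymphocyte markers fell with *Pla2g2d*, since all 5 B cell markers and all 5 T cell markers were called down. The B cell markers summed to 684, 283 and 452 CPM in the glands and 8.75, 10.4 and 8.54 CPM in the tumors, with *Cr2* at the highest mean. The T cell markers summed to 380.0, 150.0 and 287 CPM against 22.5, 25.8 and 37.5 CPM, with *Cd4* at the highest mean. These cells' part in the fall of *Pla2g2d*, and that of the adipocytes in the fall of *Mgll*, was not tested.

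Of 4 genes that return arachidonic acid to lipids, *Lpcat2*, an acyltransferase of inflammatory cells, was called up. It had 9.56, 15.9 and 19.3 CPM in the glands and 47.8, 47.6 and 53.6 CPM in the tumors, without overlap (log2 fold change 1.76, adjusted p = 7.70e-04, limma). *Acsl4*, the most abundant of the 4, had means of 179.8 ± 70.0 and 159 ± 21.5 CPM (SD, n = 3) and overlapped between the tissues. The median of the 4 genes was 0.18.

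Of 6 other terminal synthases measured, 1 (*Cbr1*) was called down and 5 not, with a median of -0.13. *Ptges3*, the cytosolic prostaglandin E synthase and a cochaperone, was the most abundant, at 336, 317 and 295 CPM in the glands and 513, 592 and 566 CPM in the tumors. Its tumors all lay above its glands, and its log2 fold change of 0.81 was under the fold threshold (adjusted p = 0.00126, limma), and some exon sequence is shared with *Baz2a*. *Cbr1*, a carbonyl reductase that can convert prostaglandin E2, had 10.6, 14.2 and 15.2 CPM in the glands and 6.33, 6.95 and 5.69 CPM in the tumors, without overlap. Its log2 fold change of -1.01 (adjusted p = 0.00708, limma) was just past the threshold. With pseudocount 1 it was -0.96, and without gland M11640, gland M9232 or tumor T9232 it was -0.95, -0.91 and -0.94, all too small to be called (adjusted p from 0.00280 to 0.0279 over all alternatives, limma, edgeR or DESeq2).

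Of both transporters, *Slco2a1*, which carries prostaglandins into cells, was called up, with 22.2, 19.7 and 22.4 CPM in the glands and 49.9, 57.9 and 55.0 CPM in the tumors. The libraries of each tissue were close together and far from the other tissue (adjusted p = 2.62e-04, limma), the log2 fold change being 1.32 with a standard error of 0.16. The exporter *Abcc4* was not called (0.06). Of 3 further breakdown enzymes, *Ptgr1* was called up and *Ptgr2* down. *Ptgr1*, a reductase of both prostaglandins and leukotrienes, had 7.52, 7.76 and 15.7 CPM in the glands and 42.8, 72.2 and 83.5 CPM in the tumors (log2 fold change 2.65, adjusted p = 4.03e-04, limma). *Ptgr2*, which acts on the product of *Hpgd*, had 151, 187 and 126 CPM in the glands and 45.8, 63.6 and 46.2 CPM in the tumors (log2 fold change -1.57, adjusted p = 4.00e-04, limma). The pair moved in opposite directions, each in all 3 mice.

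Of 4 further prostaglandin receptors measured, *Ptger1* among them, 0 were called by limma, edgeR or DESeq2, 1 (*Ptger1*) had an unadjusted p under 0.05 in limma, and the median log2 fold change was -0.17. *Ptgfr*, the receptor for prostaglandin F, had the highest mean over the 6 libraries but was lower than *Ptger1* in glands M11035 and M9232, with 3.66, 11.9 and 6.57 CPM in the glands and 7.07, 6.81 and 6.44 CPM in the tumors. The glands spanned the whole range of the tumors. The receptors *Ptgdr* and *Ptgir* had log2 fold changes of -0.22 and -0.11 and overlapped too.

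**Figure D3:**
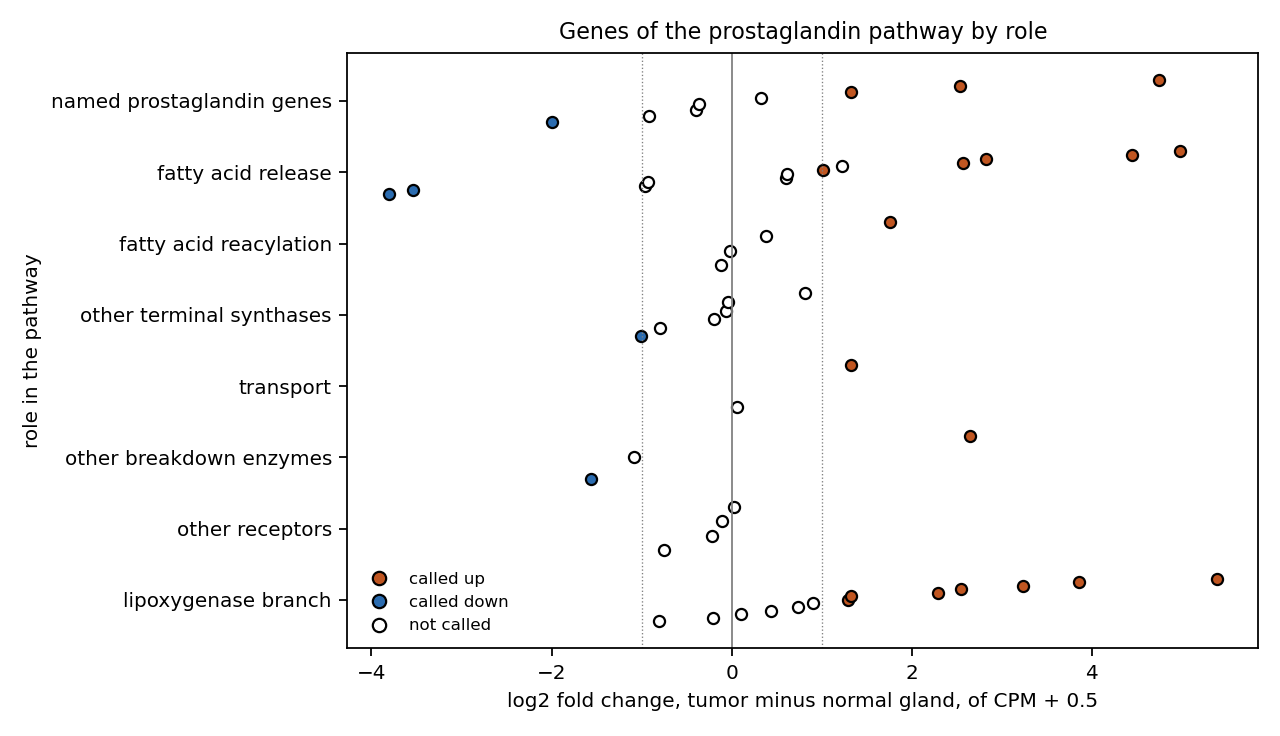
Log2 fold change of tumor over normal gland on the log2(CPM + 0.5) scale for each measured gene, in rows by role, with filled symbols for genes called up or down and open symbols for the rest, and dotted lines at the fold threshold of 1. Calls in both directions occur among the 8 named prostaglandin genes, the fatty acid release genes and the breakdown enzymes, and 0 of the 4 other receptors are called.

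Of 13 genes that regulate *Ptgs2*, 4 were called up and 9 not, where 14.5% of all genes were called up, with a median log2 fold change of 0.71 against -0.0028 over all genes. *Fos*, chosen for mention after its values were seen, was not called (log2 fold change 1.15, adjusted p = 0.0690, limma), but with the mouse as a block it was (adjusted p = 0.0265 in limma and 0.0323 in edgeR), which makes 5 of 13, and without gland M9232 6 were called. *Il1b*, a cytokine known to induce *Ptgs2*, had 10.2, 6.77 and 6.16 CPM in the glands and 250.5, 296 and 376 CPM in the tumors (log2 fold change 5.24, adjusted p = 1.81e-06, limma). *Il1a* had 3.46, 4.13 and 13.8 CPM against 54.3, 107 and 139 CPM (log2 fold change 3.87, adjusted p = 4.75e-04, limma). Both were high in all tumors and low in all glands, and their exons overlap those of *Gm14047* and *Gm14023*. Of the 6 neutrophil markers measured 4 were called up and 2 down, and all 5 squamous markers were called up. The part of these cells in the rise of *Il1b* and *Il1a* was not tested. *Cebpb*, a transcription factor gene whose exons overlap *Tmem189*, had means of 3.25 ± 0.427 and 8.99 ± 1.16 CPM (SD, n = 3) and rose by 1.34 on the log2 scale (adjusted p = 0.00221, limma). The fourth was *Jun*, at 17.9, 16.2 and 32.4 CPM in the glands and 37.4, 44.6 and 62.5 CPM in the tumors, whose call was lost without gland M11640 or tumor T9232 (log2 fold changes 0.95 and 0.93). *Creb1* had the highest mean over the 6 libraries, with a log2 fold change of -0.03, although in the tumors the mean of *Il1b* was higher. *Atf3*, the mouse gene of the factor that the transgene expresses, was chosen for mention after its values were seen, with 4.47, 8.09 and 22.6 CPM in the glands and 13.4, 18.3 and 19.3 CPM in the tumors. Gland M9232 was the highest of all 6 libraries and the groups overlapped (log2 fold change 0.80, adjusted p = 0.223, limma), while without that gland the value was 1.41 (adjusted p = 0.00804, limma, where alternatives ran up to 0.594). The labels do not say from which species the sequence of the transgene comes, so these fragments do not check its expression.

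The remaining cell type lists also describe the tissues compared. The luminal epithelial markers summed to 175, 215 and 401 CPM in the glands and 344, 366 and 459 CPM in the tumors, with 3 of 5 called up, *Elf5* called down and *Epcam* the most abundant, so epithelium was present in every library. Of 7 mast cell markers 6 were called down, with sums of 83.4, 200.7 and 166 CPM in the glands and 46.9, 27.9 and 42.6 CPM in the tumors. Of 7 endothelial markers 3 were called down, with sums of 374, 494 and 362 CPM against 207, 255 and 295 CPM. Of 7 mural cell markers 1 was called up and 1 down, and of the 2 melanocyte markers measured 0 were called by limma, edgeR or DESeq2, or had an unadjusted p under 0.05 in limma. Mast cells are rich in enzymes of prostaglandin D2, and their synthase *Hpgds* had a log2 fold change of -0.04 and overlapped between the tissues.

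For each of the 8 genes, the genes whose log2(CPM + 0.5) followed it most closely over the 6 libraries were sought among those that averaged 1 CPM or more. The measure was Pearson's r, which over 2 tissues of 3 mice mostly reflects the difference between tissues and is given as a description. For *Ptgs2* they were *Cd44*, *Dsp* and *Kdm5b* (r of at least 0.999), and 1415 genes had an r above 0.95. For *Ptgs1* they were *Klk11*, *Vmp1* and *Pik3r3*, with 1398 such genes, and for *Ptges* they were *Tnrc18*, *Pi4k2a* and *Ifitm3*, with 461. The pattern of *Ptger3* was closest to *Pde8a*, *Reep6* and *Tpcn1*, with 293 genes above 0.95. *Hpgd* (*Mfap1b*, *Armc1*, *Prtg*), *Ptger2* (*Evi2a*, *Acta2*), *Ptger4* (*Art2b*, *Tbc1d8*, *Tfb1m*) and *Ptgis* (*Lancl2*, *Efhd1*, *Mrpl27*) had 15, 34, 6 and 48 such genes. Because r mostly follows the difference between tissues, the number of such genes says little beyond whether a gene separated them.

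Promoter windows of 300 bases (250 before the transcription start and 50 after it) were taken from RefSeq on GRCm38.p6 for 7 of the 8 genes, with no entry for *Ptgis*. They were searched on both strands for the letters CGTCA (the half-site that CREB and ATF proteins bind), CACGTG (an E-box), TGANTCA (an AP-1 site) and TATAAA (known as the TATA box), which 20.8%, 7.15%, 7.81% and 13.6% of 32851 promoters hold. The window of *Ptgs2* held CGTCA at bases 14 to 18 from the annotated start and, overlapping it, CACGTG at bases 17 to 22. That of *Hpgd* held TATAAA at bases 5 to 10 from its start. In both genes these positions lie after the annotated start and not before it. None of the 4 motifs was found in the windows of *Ptgs1*, *Ptges*, *Ptger2*, *Ptger3* and *Ptger4*, which says only that these letters are not in these 300 bases. Both stretches with a match are shown because *Ptgs2* had the largest rise and *Hpgd* is the enzyme set against it above. They are written on the plus strand with the matched letters in capitals, for *Ptgs2* at chr1:150100031-150100060 with CGTCA marked and for *Hpgd* at chr8:56294544-56294573 with TATAAA marked.
Ptgs2: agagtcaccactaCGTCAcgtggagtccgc
Hpgd: cacggagtgggcTATAAAagctgctgcggc
These matches are descriptions of sequence, and no binding was measured.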

How the data were processed

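RNA-Seq data of 6 libraries were used, and 0 sample columns were left out. According to the submitters' processing notes and the study's methods, the authors used CASAVA 1.8.2, mapped read pairs to mm9 with TopHat2 2.0.3, counted fragments per RefSeq gene with HTSeq 0.5.3p9 and removed genes with fewer than 10 fragments in total. The deposited values are a normalized signal, the CPM that the authors calculated on edgeR 3.6.1's effective library size. Columns therefore do not sum to the same total, and the unit was treated as a signal and not as plain CPM, with the same test on a log scale. In each library 100% of values were whole multiples of 1 step (within 0.1 fragment), so fragments could be recovered. Fragments on genes numbered 4750989, 6127715 and 7372155 in the glands and 5116883, 7806908 and 6948233 in the tumors. The floor of 3 fragments was 0.610, 0.496 and 0.410 CPM in the glands and 0.558, 0.393 and 0.450 CPM in the tumors.

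Genes were tested with limma 3.58.1 (R 4.3.3, mean-variance trend, no block) on log2(CPM + 0.5), with Benjamini-Hochberg adjustment over 15280 genes, after the code had been tested on simulated data. Other statistics were computed with Python 3.11.15, pandas 2.3.3, numpy 2.4.6 and scipy 1.17.1. Gene positions and exon lengths came from the mm9 GENCODE annotation. With blastn 2.17.0, 0 of the 8 genes had a transcript of another gene at least 95% identical over at least 100 bp. Libraries of a tissue differed by more than sampling noise (lowest chi-square per degree of freedom 12.96). Tumor and gland of a number come from the same mouse, so the numbers pair the samples. Over 14712 genes their deviations from the group means correlated with r = 0.107, 0.151 and 0.0168. Gland and tumor of different mice gave r from -0.168 (M11035 and T11640) to 0.0405 (M9232 and T11640). The value of mouse 9232 lay within that range, so for this mouse the correlation does not show the pairing.

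The genes named are the 8 measured members, every called gene and the most abundant gene of each pathway role, the 3 closest patterns of each member (except a gene not reported here, for *Ptger2*), and the most abundant marker of each cell type list given beside a gene. Other genes named were chosen after their values were seen. Members and lists were chosen with earlier results of these data known. Alternatives were pseudocounts of 0.1 and 1, a minimum mean of 1 CPM, plain library totals, median-ratio size factors, edgeR 4.0.16 (quasi-likelihood) and DESeq2 1.42.0 on recovered fragments, the mouse as a block, and leaving out each library.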

Additional observations from a re-analysis of the deposited data

How the results depend on the processing

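Over 15 alternatives (14 for *Ptgis*, which the minimum mean of 1 CPM removed), the calls of the 8 prostaglandin genes did not change, with 3 called up and 1 down in each. The log2 fold change ran from 4.48 to 5.01 for *Ptgs2*, 2.38 to 2.68 for *Ptgs1*, 1.09 to 1.49 for *Ptges* and -2.36 to -1.60 for *Ptger3*, and the highest adjusted p of these 4 genes was 0.0194 (limma, edgeR or DESeq2). For *Ptger2*, leaving out single libraries gave -0.0011 to 0.62, and for *Ptgis* the value ran from -0.49 without gland M11640 to -2.06 with DESeq2. All genes gave 4309 calls, 4462 with edgeR on the recovered fragments and 3774 without tumor T11640. With the mouse as a replicate block, *Ptger3* kept -2.00 in limma (adjusted p = 0.00531) and calls numbered 4298 in limma and 4462 in edgeR. Of the 167 genes of the text and its lists, the block changed the calls of 2 in limma, *Fos* (1.15) and *Efhd1* (-1.35), and of 3 in edgeR, *Fos* (1.13), *Faah* (no longer called at -0.99) and the endothelial marker *Vwf* (-1.08), and no other. *Fos*, *Faah*, *Vwf* and *Pla2g6* were chosen for mention after their values were seen. *Pla2g6* was called down in 6 of 15 alternatives: pseudocount 0.1 (-1.05), edgeR (-1.11), DESeq2 (-1.11), blocked edgeR (-1.11) and without gland M11035 (-1.17) or tumor T11035 (-1.11). *Ptgfr* changed sign with edgeR (-0.13), DESeq2 (-0.13) and blocked edgeR (-0.039) and lay between -0.36 and 0.42 without single libraries, *Creb1* between -0.085 and 0.0084 and *Acsl4* between -0.27 and 0.18. Of 24 further pathway genes, looked at after their values were seen, 5 that limma did not call were called in some alternatives: *Faah* down with edgeR (-1.07), DESeq2 (-1.07) and without gland M11640 (-1.27), and without 1 library each *Pla2g2e* (1.94) and *Alox5ap* (1.12) up and *Ptges2* (-1.04) and *Cysltr2* (-1.07) down. The cause was not tested. With 3 mice, depth limits *Ptgis* and the phospholipases near the floor, and 3 against 3 libraries limit permutation tests.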

Other observations

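The lipoxygenase branch competes for the same arachidonic acid and was described from a list of 14 genes, of which 13 were measured. Of these, 7 were called up and 6 not by limma, where 14.5% of all genes were called up, with a median log2 fold change of 1.29 against -0.0028 over all genes. The epidermal lipoxygenases *Alox12b*, *Aloxe3* and *Alox8* were called up, while *Alox12e*, chosen for mention after its values were seen, overlapped between the tissues and was not (log2 fold change 0.43, adjusted p = 0.590, limma). *Alox12b* had 0, 2 and 0 fragments in the glands and 85, 219 and 211 in the tumors, a ratio of 239 with a counting interval from 65.9 upward. *Aloxe3* had 1.22, 0.496 and 0 CPM in the glands and 13.0, 14.0 and 12.9 CPM in the tumors (log2 fold change 3.86, adjusted p = 1.87e-04, limma). *Alox8* had 2.85, 0.991 and 1.92 CPM in the glands and 12.1, 17.7 and 9.89 CPM in the tumors (log2 fold change 2.54, adjusted p = 6.78e-04, limma). In *Alox12b*, *Aloxe3* and *Alox8* every tumor exceeded every gland, as it did in *Alox12* (adjusted p = 0.00366, limma, with a log2 fold change of 1.29). The squamous epithelial markers rose in the same libraries, and their part in the rise of these genes was not tested.

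Of the 4 leukotriene receptors on the list 3 were called up, and *Cysltr2*, chosen for mention after its values were seen, was lower in all tumors than in all glands but not called (log2 fold change -0.81, adjusted p = 0.0625, limma), except without gland M11035 (-1.07). By limma the measured enzymes of leukotriene synthesis were not called, and the difference between them was not tested. *Ltb4r1* had 2 fragments in all glands and 102 in all tumors, and *Ltb4r2* had 1 and 45, ratios of 47.4 and 41.8 with counting intervals from 12.8 and 7.13 upward. *Cysltr1* had 9.15, 16.5 and 7.93 CPM in the glands and 22.7, 29.0 and 31.2 CPM in the tumors, without overlap (log2 fold change 1.32, adjusted p = 0.00612, limma). Neutrophil markers rose in sum in the same tumors, with 4 of 6 called up and 2 down. Their part in the rise of the leukotriene receptors was not tested. *Lta4h*, which makes leukotriene B4 and had the highest mean of the list over the 6 libraries, though *Cysltr1* and *Alox12b* had higher means in the tumors, overlapped between the tissues at a log2 fold change of -0.21 (adjusted p = 0.356 by limma). The same held for *Alox5* (0.10), which starts leukotriene synthesis. Its partner *Alox5ap* was higher in all tumors than in all glands but not called (log2 fold change 0.90, adjusted p = 0.0528, limma), and it was called up without gland M9232 (1.12). Both were chosen for mention after their values were seen.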
